A study of Mus musculus with 13 samples.

Results

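Pard6b, Dlg4 and Cldnd1 are 3 mRNAs for proteins of cell polarity, membrane scaffolds and the claudin-related family, and they were taken by Ensembl identifier from the 52 RNAs of the deposited table. Pard6b encodes an adaptor of the PAR polarity complex, which holds atypical protein kinase C next to the small GTPase Cdc42 and helps set up the apical side and the tight junctions of epithelial cells. Dlg4 encodes PSD-95, a membrane-associated guanylate kinase whose PDZ domains gather receptors and signaling proteins at excitatory synapses. Cldnd1 encodes an integral membrane protein related to the claudins, the strand-forming proteins of tight junctions, and the table describes it as claudin 25. The row ENSMUSG00000044641 is Pard6b in GENCODE and is described as the beta form in the table itself, whereas the study calls it Pard6a.

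RNA was sequenced after immunoprecipitation (IP) from cytoplasmic extracts of UV-crosslinked RAW 264.7 cells, a mouse macrophage line. P23, also named PTGES3, is an HSP90 co-chaperone that the study examined as an RNA-binding protein, and an antibody against luciferase (LUC) served as control. Untreated cells (0 h) gave 3 P23 IPs and 3 LUC IPs, cells given 10 ng/ml LPS for 2 h gave 3 P23 IPs and 2 LUC IPs, and each time point had 1 input, sequenced without IP. A further LUC IP of 2 h had been left out by the study as an outlier. LPS is a bacterial cell wall component that activates macrophages, and the comparison asked which RNAs P23 holds before and after that activation. The IPs are biological replicates of a single line according to the labels, which do not say which libraries shared a sequencing lane. The labels and the methods name the P23 antibody differently, and which of them was used was not settled.

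The study put RNAs into the table because they were higher with P23 than with LUC at 0 h in these same libraries, so that comparison is given for the 3 mRNAs as a description and not as independent evidence. Raw counts of the 3 mRNAs lay between 10 and 136 per library. A normalized count is a raw count divided by the size factor of its library, which was read out of the deposited variance-stabilized values and ranged from 0.461 to 1.02 in the IPs. Differences between IP groups were tested over all 52 RNAs with edgeR (quasi-likelihood), and "called" means an adjusted p of at most 0.05. The table holds too few marker genes to check the identity of the cells here, and of 5 LPS response genes it holds Pim1. In the input, Pim1 was at 23.3 normalized counts without LPS and 507.1 with it. The table holds 0 of 4 epithelial, 4 neuronal, 3 fibroblast, 2 T cell and 2 B cell markers. It also holds 0 of 13 other polarity genes, 0 of 16 other scaffold genes and partners and 0 of 13 other claudin-domain and tight junction genes, which were therefore not analysed here.

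Pard6b lies on chromosome 2 of GRCm38 from 168081004 to 168101203, Dlg4 on chromosome 11 from 70016942 to 70047522 and Cldnd1 on chromosome 16 from 58727910 to 58734251. All 3 are protein-coding genes on the plus strand, and GENCODE M21 places no other gene over them, so the counting of reads without regard to strand leaves no overlapping partner in that annotation. The study examined U and G stretches in the 3′UTRs of its RNAs. U/G-only hexamers, meaning any 6 consecutive bases that are U or G alone, were therefore counted on the mRNA strand of the RefSeq 3′UTRs. The windows of 30 nt with the most such hexamers are shown for the 3 mRNAs, because they differ in make-up between the members. Capitals mark bases that belong to a U/G-only hexamer.
Pard6b: aUGUGUGUGUGUGUGUGUGUGUUUGUGGGU
Dlg4: aGGUGGUUUUUGGGGGGagaagcaGGGGGG
Cldnd1: uacuacacuauaccUGUUUGUUUUUUUUUU
The window of Pard6b (chr2:168099778-168099807, plus strand) starts 568 nt into a 3′UTR of 1993 nt and is mostly a repeat of alternating U and G. It held 24 of the 25 hexamer starts that such a window can hold. The window of Dlg4 (chr11:70045195-70045224, plus strand) is rich in G, starts 500 nt into a 3′UTR of 837 nt and held 12. The window of Cldnd1 (chr16:58733689-58733718, plus strand) is rich in U, starts 630 nt into a 3′UTR of 1188 nt and held 11.

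These counts are common to very different degrees among mouse 3′UTRs of like length (within 10%). A window with at least the count of Pard6b occurred in 11.2% of 1200 such 3′UTRs, against 22.7% of 1139 for Dlg4 and 36.1% of 1239 for Cldnd1. Over the whole 3′UTR the density was 49.7 hexamers per kb for Pard6b, 60.9 for Dlg4 and 41.2 for Cldnd1, and 13.0%, 9.92% and 25.9% of the like 3′UTRs had at least as much. Dlg4 therefore had the lower peak and the higher density of the pair Pard6b and Dlg4. Among the 44 RNAs of the table with a RefSeq 3′UTR the median of the highest window was 14, and 8 RNAs exceeded Pard6b, 26 exceeded Dlg4 and 29 exceeded Cldnd1. The choice of gene matters for this feature, since the 3′UTR of Pard6a (chromosome 8) has 132 nt and 1 U/G-only hexamer. A match is a feature of the letters and does not show binding.

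**Figure D1:**
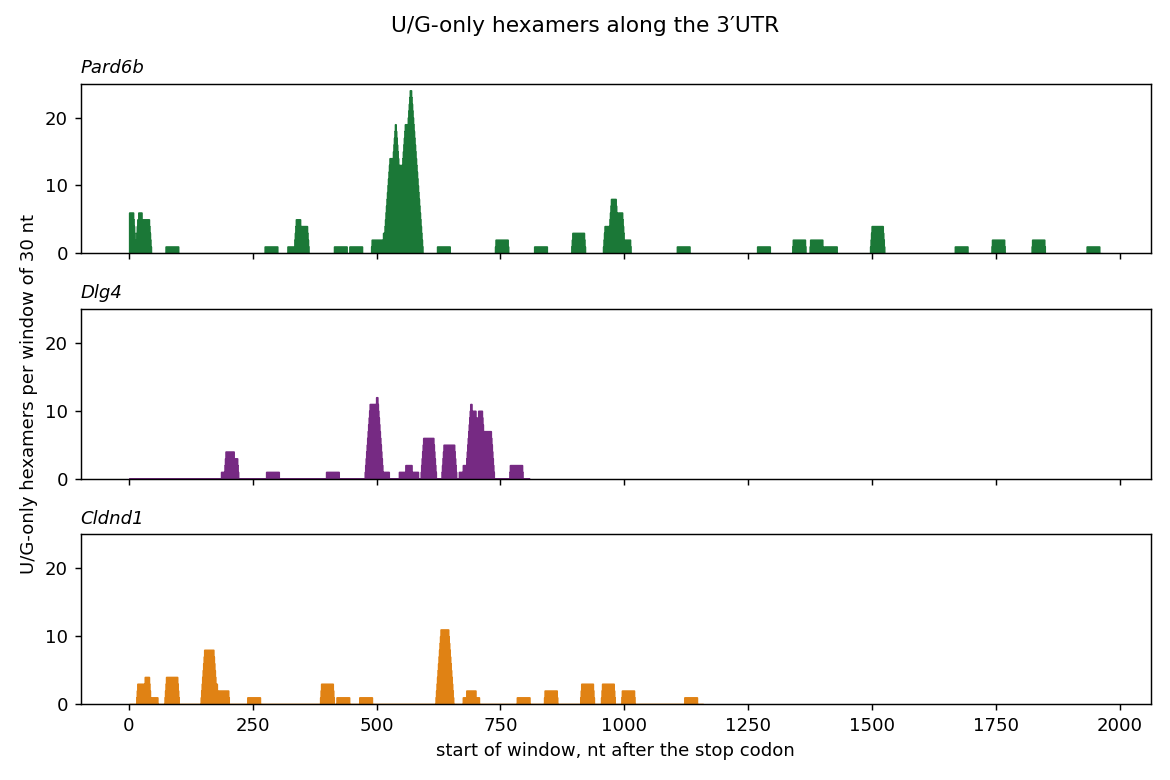
Number of U/G-only hexamers in each window of 30 nt (vertical axis) against the start of the window in nt after the stop codon (horizontal axis), for the RefSeq 3′UTRs of Pard6b, Dlg4 and Cldnd1. Pard6b has 1 peak of 24, whereas the highest windows of Dlg4 and Cldnd1 reach 12 and 11.

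In untreated macrophages the 3 mRNAs had similar normalized counts in the P23 IPs, and each was lower with LUC. Pard6b was at 75.6, 72.5 and 66.8 normalized counts in the P23 IPs and at 34.7, 41.4 and 47.8 in the LUC IPs. Dlg4 was at 78.3, 56.4 and 62.9 with P23 and at 43.4, 33.6 and 44.7 with LUC. Cldnd1 was at 71.6, 64.4 and 61.9 with P23 and at 26.1, 29.8 and 45.7 with LUC. For none of the 3 did the P23 and LUC libraries overlap, as for 80.8% of the 52 RNAs, and LUC replicate 3 was the highest LUC library for each of them. The log2 fold change was 0.75 for Pard6b (standard error, SE, 0.16), 0.68 for Dlg4 (SE 0.21) and 0.89 for Cldnd1 (SE 0.20), next to a median of 0.66 over the table. They ranked 22nd, 25th and 13th of the 52. All 3 were called, as were 100.0% of the table, from which nothing follows for these mRNAs. On the total counts over the table as library sizes, which remove a shift common to the RNAs, the values were -0.024, -0.085 and 0.11. None was called. The totals weigh abundant RNAs most, and the median of the table on them was -0.09.

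**Figure D2:**
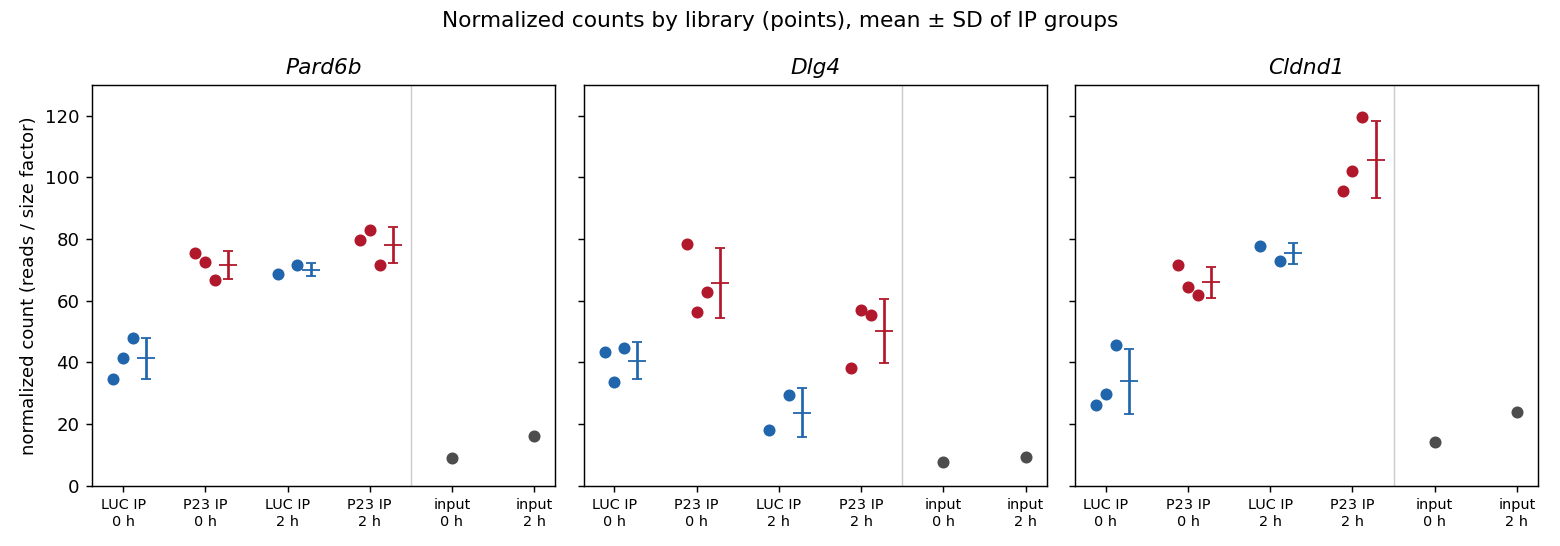
Normalized counts (raw reads over size factor, vertical axis) of Pard6b, Dlg4 and Cldnd1 in each library, with LUC IPs in blue, P23 IPs in red, inputs in grey, and mean ± SD beside the IP groups. After LPS the LUC IPs of Pard6b and Cldnd1 lie higher than before, at means of 70.1 and 75.3, and those of Dlg4 lie lower, at 23.8.

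After 2 h of LPS, Dlg4 was called as higher with P23 than with LUC, Cldnd1 was higher in every P23 library without passing the test, and the IPs of Pard6b overlapped. Dlg4 was at 38.2, 57.2 and 55.4 normalized counts with P23 and at 18.1 and 29.4 with LUC. The lowest P23 library of Dlg4 still lay above both LUC libraries, which rest on 10 and 21 raw counts. Cldnd1 was at 95.6, 102.1 and 119.6 with P23 and at 77.7 and 72.9 with LUC. Every P23 library of Cldnd1 thus exceeded both LUC libraries. Pard6b was at 79.7, 83.005 and 71.48 with P23 and at 68.7 and 71.52 with LUC, so its lowest P23 library fell just under the higher LUC library. P23 libraries lay above all LUC libraries for 63.5% of the 52 RNAs at this time point.

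The log2 fold change of P23 over LUC at 2 h was 1.05 for Dlg4 (SE 0.29, adjusted p = 0.025, edgeR), the 3rd highest of the 51 RNAs with counts at 2 h. It was 0.49 for Cldnd1 (SE 0.20, adjusted p = 0.074, edgeR) and 0.15 for Pard6b (SE 0.18, adjusted p = 0.53, edgeR). The median of the table was 0.40. Of the 52 RNAs, 7.69% were called higher with P23 at 2 h, which makes 1 of the 3 mRNAs against 4 of the whole table. The call of Dlg4 was lost without P23 2 h replicate 2, P23 2 h replicate 3 or LUC 2 h replicate 1 (log2 fold changes of 0.95, 0.98 and 0.78, adjusted p up to 0.18, edgeR). It was also lost on each scale set from the table alone, with log2 fold changes from 0.39 to 0.64, and on those scales Pard6b was between -0.50 and -0.26 and Cldnd1 between -0.16 and 0.08.

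From 0 h to 2 h the log2 fold change of P23 over LUC moved by 0.37 for Dlg4 (SE 0.36), by -0.60 for Pard6b (SE 0.24) and by -0.39 for Cldnd1 (SE 0.28). The change of Dlg4 was the highest of the 51 RNAs with counts at 2 h, of which 10 were above 0 and 41 below, with a median of -0.25. The RNAs were chosen for the P23 over LUC value of 0 h, which this change subtracts, so a lower value at 2 h and the effect of that choice cannot be told apart, and the counts below 0 are a description. None of the 3 changes passed edgeR's test of the interaction, with adjusted p = 0.70 for Dlg4, 0.28 for Pard6b and 0.55 for Cldnd1. The test called 0.0% of the 52 RNAs as rising and 1.92% as falling, with 0 and 5 at an unadjusted p under 0.05, and Pard6b was one of those 5 (unadjusted p = 0.027, edgeR). DESeq2 and limma also called 0 and 1. The value of Dlg4 depended on the LUC libraries of 2 h, since it was 0.09 without LUC 2 h replicate 1 and 0.79 without LUC 2 h replicate 2. That of Cldnd1 was -0.72 without LUC 0 h replicate 3. The study gave P23 to LUC ratios of mean TPM, a read count scaled for gene length and library. Those ratios were lower at 2 h for all 3 mRNAs. For Dlg4 the direction was thus opposite to that of the change given here, which is on another measure and was not called. The opposite direction was not particular to Dlg4. Kif15, the mRNA that the study followed up, also had a lower ratio at 2 h there and a change of 0.26 here (SE 0.37). The 2 measures use different scales between libraries, and Dlg4 had the highest change of the 3 mRNAs on both.

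**Figure D3:**
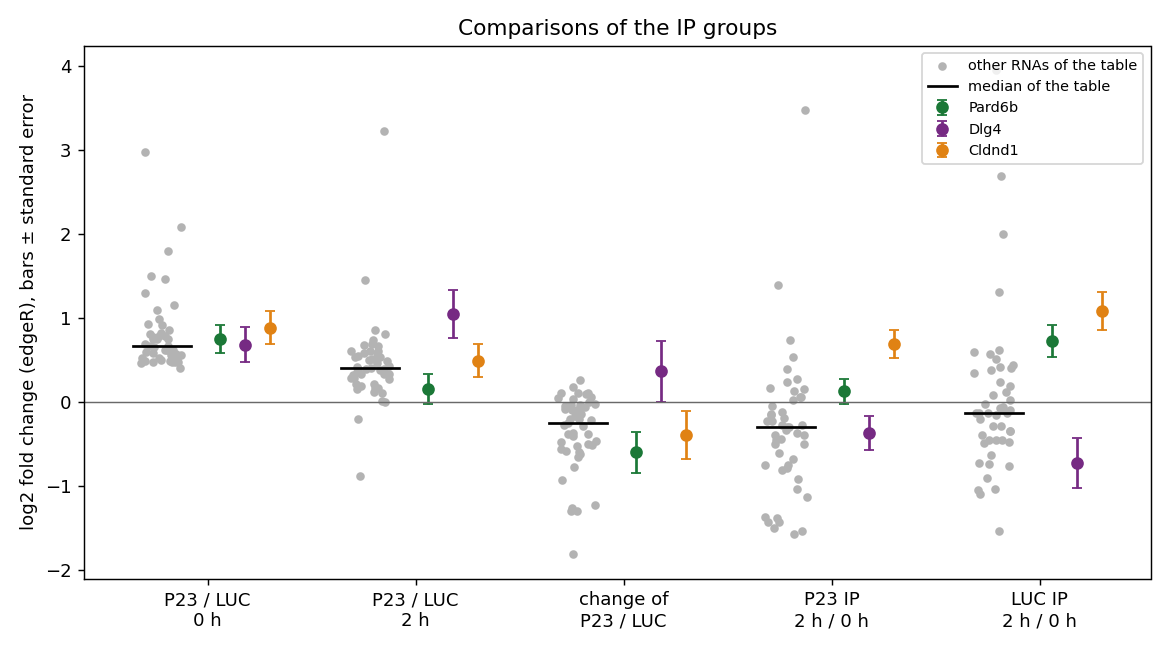
Log2 fold changes from edgeR (vertical axis) for 5 comparisons of the IP groups, with Pard6b, Dlg4 and Cldnd1 as coloured points ± standard error, the other RNAs of the table with counts as grey points and the median as a black line. In the change of P23 over LUC, Dlg4 is the highest point at 0.37 while Pard6b and Cldnd1 lie at -0.60 and -0.39.

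Set against time within each antibody, Cldnd1 rose in both kinds of IP, and Pard6b rose in the LUC IPs. The LUC IPs of 0 h are the libraries against which the RNAs were chosen as high with P23, so a rise from them and the effect of that choice cannot be told apart, and the same holds for lower values than in the P23 IPs of 0 h. With LUC, Cldnd1 went from a mean of 33.8 ± 10.4 normalized counts (SD, n = 3) at 0 h to 75.3 ± 3.4 (SD, n = 2) at 2 h, which edgeR put at 1.08 on the log2 scale (SE 0.22, adjusted p = 0.0016). With P23 it went from 66.0 ± 5.0 to 105.8 ± 12.4 (SD, n = 3 each), a difference of 0.69 on the log2 scale (SE 0.17, adjusted p = 0.0025, edgeR). Every Cldnd1 library of 2 h lay above every library of 0 h with the same antibody. Such a separation occurred in 23.1% of the 52 RNAs for LUC and in 13.5% for P23.

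Pard6b went from 41.3 ± 6.5 (SD, n = 3) to 70.1 ± 2.0 (SD, n = 2) normalized counts with LUC, which edgeR put at 0.73 on the log2 scale (SE 0.19, adjusted p = 0.0080). With P23 it was at 71.6 ± 4.5 and 78.1 ± 5.9 (SD, n = 3 each), with a difference of 0.13 on the log2 scale (SE 0.15, adjusted p = 0.46, edgeR). Of the LUC IPs of 2 h, replicate 1 (68.7) lay below all P23 IPs of Pard6b at 2 h and replicate 2 (71.52) just above the lowest of them. The call with LUC was lost without LUC 2 h replicate 2 (log2 fold change of 0.69, adjusted p = 0.10, edgeR). With TMM scaling over the table, Pard6b was called in the P23 IPs as well (log2 fold change of 0.43, adjusted p = 0.022, edgeR).

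Dlg4 had lower means at 2 h with both antibodies, without a call. Its mean was 40.6 ± 6.0 (SD, n = 3) at 0 h against 23.8 ± 8.0 (SD, n = 2) normalized counts at 2 h with LUC and 65.9 ± 11.3 against 50.3 ± 10.5 (SD, n = 3 each) with P23. The log2 fold changes were -0.73 (SE 0.30, adjusted p = 0.075, edgeR) and -0.36 (SE 0.20, adjusted p = 0.15, edgeR). The libraries of the 2 time points did not overlap with LUC, where 28.8% of the 52 RNAs lay wholly below their level at 0 h, and overlapped with P23. The difference with LUC was called without LUC 0 h replicate 2 (adjusted p = 0.043, edgeR) and by limma on the variance-stabilized values (adjusted p = 0.038). Over the 52 RNAs, edgeR called 15.4% higher and 11.5% lower at 2 h in the LUC IPs, and 11.5% higher and 40.4% lower in the P23 IPs. Pard6b and Cldnd1 were thus among 8 RNAs called higher with LUC, and Cldnd1 among 6 called higher with P23. The LUC and P23 comparisons over time share no library with each other but are made of the libraries behind the P23 over LUC values.

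In the inputs, which show the RNA before IP, Pard6b and Cldnd1 were higher at 2 h and Dlg4 differed less. Pard6b had 8.85 normalized counts before LPS and 16.3 after it, a log2 ratio of 0.88 (95% interval 0.38 to 1.39) from 54 and 92 raw counts. Cldnd1 was at 14.3 and 24.1, a log2 ratio of 0.75 (95% interval 0.36 to 1.16) from 87 and 136 raw counts. Dlg4 was at 7.87 and 9.38, a log2 ratio of 0.25 (95% interval -0.34 to 0.85) from 48 and 53 raw counts. Pard6b and Cldnd1 were 3rd and 4th and Dlg4 14th of the 51 RNAs with a ratio, whose median was 0.01. Counting error alone enters these intervals (exact, Clopper-Pearson), and with 1 input per time point there is no replicate check. In bulk RNA a change in the share of cells that hold an mRNA and a change in its amount per cell cannot be told apart.

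Per kb of annotated exon, the inputs of 0 h held 2.60 normalized counts of Pard6b, 5.56 of Cldnd1 and 0.594 of Dlg4. The exon length of Dlg4, 13.3 kb, is the union over all annotated transcripts and lowers its value. By this measure Cldnd1 was the most abundant of the 3 mRNAs, and Dlg4 reads were the scarcest for its length. In the P23 IPs of 0 h the means were 21.1 per kb for Pard6b, 25.7 for Cldnd1 and 4.97 for Dlg4.

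All 3 mRNAs were above the median of the table in recovery over input, with LUC as well as with P23. At 0 h the mean normalized count with P23 was 8.09 times the input for Pard6b (7.55 to 8.55 over the libraries), 8.37 times for Dlg4 and 4.63 times for Cldnd1, against a median of 2.57 over the table. With LUC the ratio was 4.67 for Pard6b (3.93 to 5.40 over the libraries), 5.16 for Dlg4 and 2.37 for Cldnd1, against a median of 1.53. At 2 h they were 4.80, 5.36 and 4.40 with P23 and 4.31, 2.53 and 3.13 with LUC, against medians of 1.86 and 1.41. For Pard6b the ratio with P23 was thus lower at 2 h while that with LUC was similar, and for Dlg4 both were lower. For Cldnd1 the ratio with P23 was similar and that with LUC was higher. The P23 mean of Pard6b itself was 71.6 normalized counts at 0 h and 78.1 at 2 h, over inputs of 8.85 and 16.3. The ratios to input were not tested, since each rests on 1 input library.

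Ratios between the 3 mRNAs within a library need no scale between libraries. At 0 h Dlg4 had 1.04, 0.778 and 0.941 raw counts for each count of Pard6b in the P23 IPs and 1.25, 0.813 and 0.935 in the LUC IPs. At 2 h the ratio was 0.480, 0.689 and 0.776 in the P23 IPs and 0.263 and 0.412 in the LUC IPs. The inputs gave 0.889 before and 0.576 after LPS. The ratio of Dlg4 to Pard6b was therefore lower at 2 h in the IPs of both antibodies. With P23, however, the lowest library of 0 h (0.778) and the highest of 2 h (0.776) nearly met. The input ratio was also lower, but it rests on 1 library per time point, with 48 over 54 and 53 over 92 raw counts. These inputs cannot show whether the ratio changed.

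Dlg4 over Cldnd1 was between 0.875 and 1.09 with P23 and between 0.977 and 1.67 with LUC at 0 h, and between 0.40 and 0.56 with P23 and between 0.233 and 0.404 with LUC at 2 h. In the inputs it was 0.552 and 0.390, from 48 over 87 and 53 over 136 raw counts. Cldnd1 over Pard6b was between 0.889 and 0.946 with P23 and between 0.719 and 0.957 with LUC at 0 h, and between 1.20 and 1.67 with P23 and between 1.02 and 1.13 with LUC at 2 h. In the inputs the latter ratio was 1.61 and 1.48, and in the IPs it was higher at 2 h. The inputs rest on 1 library per time point, with 87 over 54 and 136 over 92 raw counts for Cldnd1 over Pard6b. They cannot show whether either of these ratios changed. For each of the 3 pairs the libraries of 0 h and 2 h did not overlap, with P23 or with LUC. Such a separation was common, at 61.0% of the 1275 pairs of RNAs in the table with P23 and 58.4% with LUC.

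From 0 h to 2 h the mean log2 ratio of Dlg4 to Pard6b differed by -0.52 with P23 and by -1.58 with LUC, and that of Dlg4 to Cldnd1 by -1.08 with P23 and more with LUC. The mean log2 ratio of Dlg4 to Pard6b in the P23 IPs minus that in the LUC IPs was 0.95 at 2 h and -0.11 at 0 h. For Dlg4 to Cldnd1 this difference was 0.62 at 2 h and -0.31 at 0 h, and the libraries overlapped at both times. These designs are small: the exact permutation test, two-sided, cannot go below 0.10 for 3 against 3 or 0.20 for 3 against 2 libraries. The ratio of Dlg4 to Pard6b gave exact p = 0.20 at 2 h and 0.70 at 0 h. Of 12 such comparisons none passed, with adjusted p of 0.30 or more, and 6 of them, between the time points, were added after the data were seen.

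**Figure D4:**
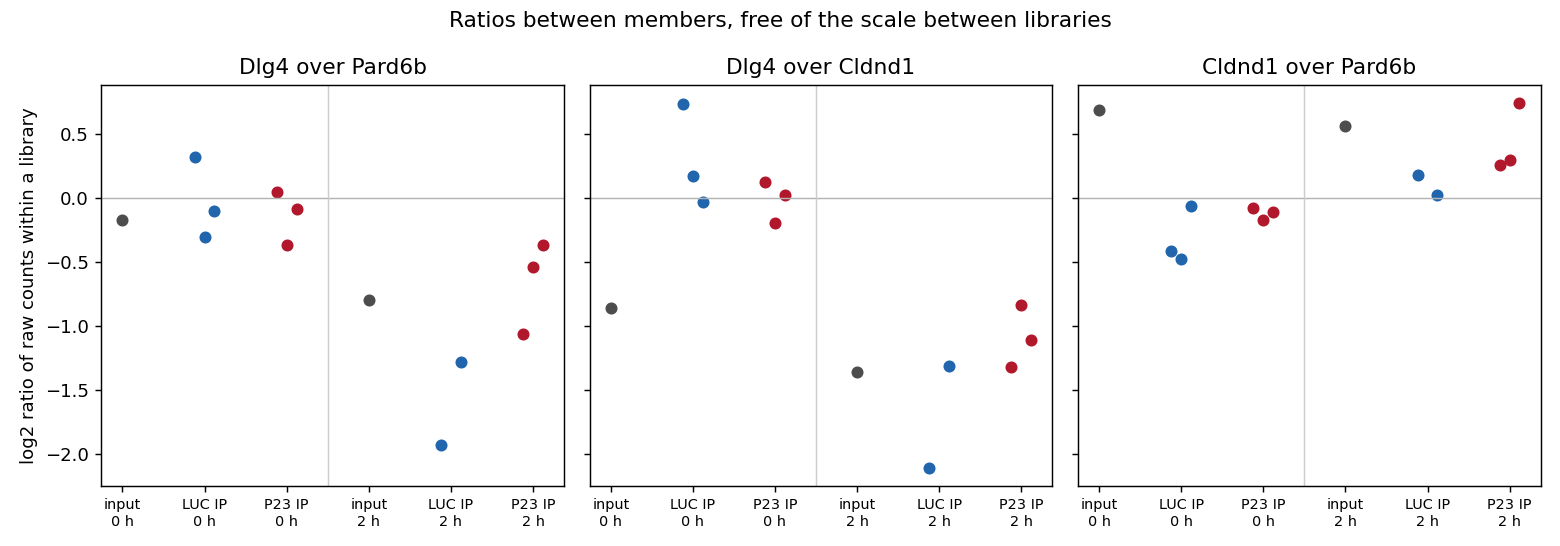
Log2 ratio of raw counts between members within each library (vertical axis), for inputs in grey, LUC IPs in blue and P23 IPs in red, with 0 h to the left and 2 h to the right of the line. At 2 h the ratios of Dlg4 to Pard6b and to Cldnd1 are lower in all groups than at 0 h, with LUC IPs down to 0.263 and 0.233 before the logarithm.

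Across the 11 IP libraries the levels of Pard6b and Cldnd1 followed each other and those of Dlg4 did not follow either. The Pearson correlation of log2 normalized counts plus 1 was 0.93 between Pard6b and Cldnd1, 0.19 between Pard6b and Dlg4 and 0.13 between Cldnd1 and Dlg4. The RNAs of the table most like Pard6b were Nsa2 (0.95), a ribosome assembly factor, and Hlx (0.94), a homeobox transcription factor. Those most like Dlg4 were Bcl2l2 (0.95), a survival factor, and Isoc2a (0.92), and those most like Cldnd1 were Cisd2 (0.95), an iron-sulfur protein, and Pard6b. The points share libraries and size factors and fall into 4 groups, so these correlations are a description.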

How the data were processed

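The deposited table holds 13 libraries and 52 RNAs. For the raw counts the authors used Trimmomatic 0.33 for trimming, TopHat2 2.0.14 for mapping to GRCm38 and HTSeq 0.6.1 for unique reads per gene, ignoring strand. The authors also deposited variance-stabilized log2 values. A curve shared by all libraries and 1 size factor per library, fitted together, reproduce these values to within 1e-10. The deposited log2 fold changes and p-values of the authors' own comparisons were not used. 0 sample columns were left unmapped. Library depth cannot be read from 52 RNAs. Their counts sum to 3751 to 11866 per IP and to 24335 and 25437 in the inputs.

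Raw counts of the 11 IP libraries were fitted with edgeR 4.0.16 in R 4.3.3 (4 group means, these size factors, no filter, Benjamini-Hochberg over 52 RNAs), which was tested on simulated data. Alternatives used DESeq2 1.42.0, limma 3.58.1, TMM, equal medians or totals over the table, a minimum mean normalized count of 20, the groups compared alone, a replicate block and each IP library left out. Ratios used scipy 1.17.1, at a confidence level of 95%. Input ratios and ratios to input were not tested. 3′UTRs came from RefSeq on GRCm38.p6 (at least 36 nt, the longest per gene) and gene positions from GENCODE M21, which matched all 52 identifiers. The genes named are the 3 members, their 2 most correlated RNAs each, the marker and family lists, and Kif15 beside the study's ratios. The members and lists were chosen with earlier results of these data known. The result of 1 marker list is not reported here.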

Additional observations from a re-analysis of the deposited data

How the results depend on the processing

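On scales set from the table alone the P23 over LUC values of 0 h lost their calls. They were 0.078 (Pard6b), 0.016 (Dlg4) and 0.21 (Cldnd1) with TMM, 0.18, 0.12 and 0.32 with equal medians, and -0.024, -0.085 and 0.11 with totals, and the RNAs called higher numbered 2, 3 and 2. These scales remove by construction a shift common to the 52 RNAs, and totals weigh abundant RNAs most. The median of the table at 0 h was 0.01, 0.12 and -0.09 on them against 0.66. At 2 h, in the same order, Pard6b was at -0.32, -0.26 and -0.50 and Dlg4 at 0.57, 0.64 and 0.39, Cldnd1 was at -0.16 with totals, 2 RNAs were called higher on each scale and 6 lower with totals. The call of Cldnd1 at 2 h was gained with only the groups compared (0.49, adjusted p = 0.042, edgeR), where 13 RNAs were called higher, against 8 with DESeq2 and 4 in the reported fit. In the P23 IPs, 2 h over 0 h, TMM and equal medians called 14 and 10 RNAs higher against 6, and TMM called Pard6b (0.43). In the LUC IPs Dlg4 was called with totals (-0.79) and by limma (-0.64), and totals called 14 lower against 6.

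Without 1 library at a time, Dlg4 at 2 h ranged from 0.78 to 1.48, with 2 to 13 RNAs called higher and 0 to 1 lower. In the P23 IPs 3 to 5 RNAs rose. In the LUC IPs Pard6b ranged from 0.65 to 0.86 and Dlg4 from -1.16 to -0.46, with 5 to 9 RNAs called higher and 1 to 11 lower. Where this left 1 LUC library at 2 h, it was assumed to vary like the other groups. With the replicate block, Dlg4 at 2 h was at 1.02 (adjusted p = 0.048, edgeR), 3 RNAs were called higher, and no call of the 3 mRNAs changed. After the mean of each group was taken off the log2 values, same-numbered libraries of different groups correlated between -0.39 and 0.39. The deviations of the 2 LUC libraries of 2 h mirror each other by construction. On these deviations, 1 of 11 libraries correlated best with its own number, so the numbers were not taken as pairs. Of 381 values recomputed, 332 kept their direction and side of the threshold, or their size. These 332 include values that were never called and counts of 0 that stayed at 0, so their number is no measure of how firm the calls are. Raw counts of 10 to 136 per library limit the counting precision of the 3 mRNAs, and the lowest was that of Dlg4 in LUC 2 h replicate 1.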
